A study of Drosophila melanogaster with 4 samples.

Results

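The regions described here are isolated and narrow stretches of Chromator enrichment on the autosomal arms 2L, 3L and 3R of Drosophila melanogaster. They came from ChIP-seq, in which chromatin bound by an antibody target is recovered and sequenced. The 2 ChIP samples and the 2 input samples were from wild-type Oregon-R embryos of 14 to 16 hours, and the antibody, labelled WR, has Chriz (another name of Chromator) as its stated target. All samples share strain, genotype, stage and antibody label, so the study holds no treatment contrast, and whole embryos mix many cell types. Nothing in the labels states if replicate 1 and replicate 2 were collected as separate batches of embryos.

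Enriched regions come as 3 lists: 1 from each ChIP replicate and 1 from the replicate set, called the combined list here. Positions are 1-based, inclusive and of FlyBase release 5, and genes are not assigned to them. Regions were selected on their width and spacing in the combined list. A region had to be under 3000 bp wide, with gaps of at least 15000 bp to the previous and to the next region of its arm, and the first and last region of each arm were left out. The rule kept 484 of the 3279 combined-list regions of these arms, out of 5762 in the whole list. Of the remaining regions, 2389 were as narrow but had a nearer neighbour (crowded narrow regions), 37 were isolated but wide, 363 were wide and crowded, and 6 were first or last. Width, gaps and the count of isolated regions are therefore the choice itself. They are given as a description with no test, and so is the score, which comes from the same list.

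Chromator has a chromodomain and occupies polytene interbands, which are the decondensed stretches between the dark bands of salivary gland chromosomes. There it is found together with the zinc-finger protein Z4 (putzig) and the kinase JIL-1, which phosphorylates histone H3. It is also known from promoters of broadly active genes and from borders between chromatin domains, often beside insulator proteins such as BEAF-32. Most regions of the list lie closer together than these, which have no other listed enrichment nearby.

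The isolated narrow regions held few bases, and the gaps beside them spanned much of the arms. They made up 14.8% of the regions of the 3 arms and 11.2% of the bases in regions, or 0.801 Mb of 7.17 Mb. The 746 gaps directly beside them added up to 39.3 Mb, which is 52.1% of the 75.5 Mb of these arms. Gaps of at least 15 kb anywhere on the arms covered 76.7% of the sequence. The nearer gap of an isolated narrow region had a median of 25913 bp (quartiles 18895 to 37572 bp) and reached 153919 bp.

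All 3 arms carried them, and their density was highest on 3L. Arm 2L had 143 (6.21 per Mb, 14.7% of its regions), 3L had 176 (7.17 per Mb, 17.2%) and 3R had 165 (5.91 per Mb, 12.9%). The same rule on the X gave 126 regions, 5.62 per Mb and 11.9% of its regions, and on 2R it gave 131, or 6.19 per Mb. Median widths were 1477 bp on 2L, 1593 bp on 3L and 1651 bp on 3R, and median scores were 0.52, 0.52 and 0.51. The score is the authors' value per region on a log2 scale, and it is used here to describe and rank regions within a list; scores of different lists are given side by side. The differences between arms were not tested.

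Along the arms they were present in each full window of 1 Mb, in differing numbers. Whether the counts varied more than those of randomly placed regions was not tested. Each of the 74 full windows of 1 Mb held at least 2 and at most 13 isolated narrow regions, with a median of 6.5, while all listed regions ranged from 21 to 79 per window. The fullest window was 17000001 to 18000000 of 2L, where 13 of 25 regions (52.0%) were isolated and narrow. In the window 6000001 to 7000000 of the same arm they were 2 of 55 (3.64%). Many followed one another with no other region between them, as 341 of 484 (70.5%) stood in a run of 2 or more. The count of single ones was 143, and the longest run had 7. The rule itself favours runs, since the region next to an isolated one shares a gap that already meets the limit. The share to be expected from the rule alone was not computed.

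The longest run, at 17693706 to 18120856 of 2L, was a mixed row of sites. Its 7 regions spanned 427 kb. The fifth of them, at 17962192 to 17964524, scored 1.32 in the combined list, 1.36 in replicate 1 and 1.32 in replicate 2. The other 6 scored between 0.34 and 0.48 in the combined list. Replicate 1 alone overlapped the second and the fourth, with scores of 0.59 and 0.57, and replicate 2 alone overlapped the last, with 0.51. The remaining 3 were in neither replicate list. This row held 1 site that both replicates listed, and each of the other 6 was listed by 1 replicate at most. Not all runs were mixed. The 4 regions at 6046928 to 6119500 of 3L were all in both lists, and the 4 at 17016398 to 17195470 of 2L were all in neither.

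The share of isolated narrow regions found in the replicate lists lay below that of the regions of these arms in general. Replicate 1 overlapped 196 of the 484 (40.5%, Wilson 95% interval 36.2 to 44.9), where it overlapped 69.6% of all 3279 regions of the 3 arms. Replicate 2 overlapped 190 (39.3%, 35.0 to 43.7), against 66.2% of all. Both overlapped 163 (33.7%, 29.6 to 38.0), against 61.9% of all, and neither overlapped 261 (53.9%, 49.5 to 58.3), against 26.1% of all. A further 33 were in replicate 1 alone and 27 in replicate 2 alone. Any shared base counted as an overlap, and no region met more than 1 region of a replicate list. The intervals treat regions as independent and cover counting error only. The combined list rests on the same 2 samples, so these shares are a description and have no test.

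The share in both lists was 30.8% on 2L (44 of 143), 36.9% on 3L (65 of 176) and 32.7% on 3R (54 of 165), with overlapping Wilson intervals. The same rule gave 22.2% on the X (28 of 126, 15.8 to 30.2) and 34.4% on 2R (45 of 131, 26.8 to 42.8). Median widths were 1338 bp for those of the X and 1633 bp for those of 2R. The share over all regions of each single arm was not computed, so these values have no background of their own arm. Among crowded narrow regions of the 3 arms the share in both lists was 61.6% (1472 of 2389, 59.6 to 63.5). Among the isolated but wide regions it was 97.3% (36 of 37, 86.2 to 99.5). Wide regions with the same spacing were thus nearly all in both lists.

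Width divided the isolated narrow regions into 2 groups. Of the 279 under 1800 bp, none was overlapped by both replicates, 26 were overlapped by 1 and 253 by neither. Of the 164 of at least 2000 bp, 152 were overlapped by both (92.7%, 87.6 to 95.8) and 3 by neither. The 41 in between had 11 in both (26.8%, 15.7 to 41.9), and the narrowest region in both was 1801 bp wide. These edges were chosen after the values were seen. The edge of 1800 bp lies just under that narrowest region, so the share of 0% below it follows from the choice and is given without an interval. The lists themselves differ in minimum width, which is 1001 bp in the combined list and 1301 bp in each replicate list, and 186 of the 484 (38.4%) were narrower than any replicate region. None of the 61 regions from 1301 to under 1600 bp or of the 32 from 1600 to under 1800 bp was in both lists either. The 3 of at least 2000 bp in neither list scored 0.39, 0.40 and 0.37, at 20321696 to 20324436 of 2L, 8047970 to 8050690 of 3L and 20390166 to 20392410 of 3R.

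**Figure D1:**
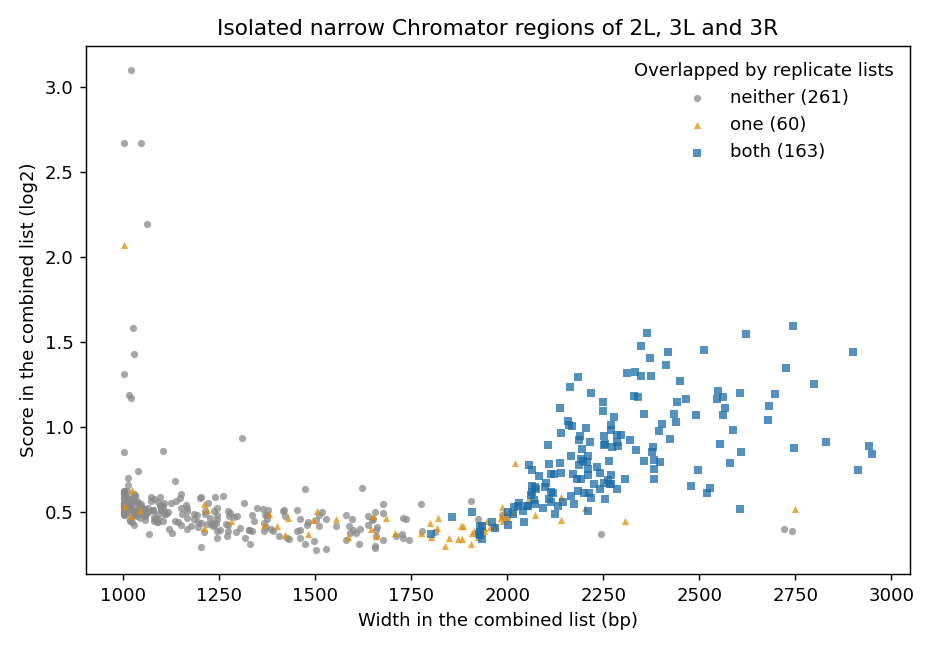
Width in bp (x axis) against the log2 score (y axis) of each of the 484 isolated narrow regions in the combined list, with a mark for the replicate lists that overlap it. The 163 regions in both lists (squares) begin at 1801 bp, and the 10 regions under 1800 bp that score 1 or more are all at the left edge, up to 1061 bp wide.

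The crowded narrow regions showed the same edge. None of the 655 under 1800 bp was overlapped by both replicates, and the narrowest crowded region in both was 1803 bp wide. Of the 237 from 1800 to under 2000 bp 23.6% were in both, and of the 1497 of at least 2000 bp 94.6% (93.3 to 95.6). The make-up by width also differed. Regions under 1800 bp were 57.6% of the isolated narrow regions and 27.4% of the crowded ones, and regions of at least 2000 bp were 33.9% and 62.7%. When the crowded regions were weighted to the width classes of the isolated ones, their share in both lists was 34.1%, against 33.7% observed for isolated regions, a difference of -0.39 percentage points. Without weighting the difference was -27.9 points (Newcombe 95% interval -32.4 to -23.2). The weighting was added after the values were seen, width is part of the rule, and the classes under 1800 bp hold a share of 0 in both kinds. The median score differed as well, at 0.52 for isolated and 0.62 for crowded narrow regions. The part of width or score in the lower share was not tested.

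Weighting by score left a larger difference than weighting by width, but these weightings are not like for like. The width classes include edges chosen after the values were seen. In the narrowest width classes no region of either kind was in both lists, so these classes add nothing to the width-weighted difference. Whether width or score had the larger part in the lower share was not tested. Weighted to the score classes of the isolated regions, the crowded regions had a share of 48.5%, and the difference was -14.8 points. The largest contrast lay at scores from 0.5 to under 0.6. There 19 of 118 isolated regions (16.1%, 10.6 to 23.8) and 172 of 350 crowded ones (49.1%, 43.9 to 54.4) were in both lists, and their median widths were 1099 bp and 2023 bp. From 0.6 to under 0.8 the shares were 75.4% (49 of 65) and 94.3% (377 of 400).

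**Figure D2:**
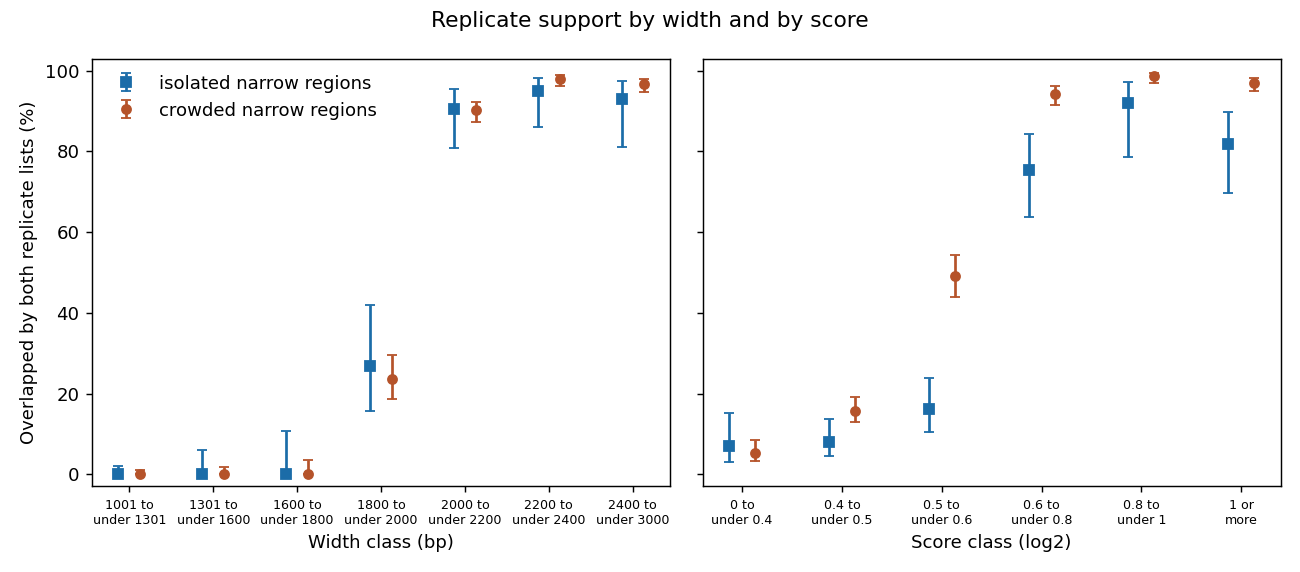
Share of regions overlapped by both replicate lists in percent (y axis) by width class in bp (left) and by class of log2 score (right), for isolated narrow regions (squares) and crowded narrow regions (circles), with Wilson 95% intervals. In each width class the intervals of both kinds overlap, whereas at scores from 0.5 to under 0.8, and at 1 or more (81.8% and 97.0%), the isolated regions lie lower and the intervals do not overlap.

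Score and width were related in opposite directions in the 2 width groups. Among isolated regions of at least 2000 bp wider ones scored higher, with a Spearman's rho of 0.55 across 164 regions and a median of 0.79 (quartiles 0.62 to 1.02). Among the 279 under 1800 bp wider ones scored lower, with a rho of -0.63, a median of 0.49 and quartiles of 0.42 to 0.54. The crowded regions had rho values of 0.65 and -0.66 in the same groups. These are correlations across regions of 1 list, which share libraries and a caller, and they are given without a p.

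High scores were found in both width groups, with unlike replicate support. All 45 isolated regions of at least 2000 bp with a score of 1 or more were in both replicate lists. Of the 10 under 1800 bp with such a score, none was in both and 9 were in neither. These 10 were between 1001 and 1061 bp wide, at or near the minimum width of the combined list.

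The 5 highest scores of all 484 regions belonged to this narrow kind. The highest was 3.10, at 18060702 to 18061722 of 3R, which ranked 6 in the whole combined list. Next came 4906330 to 4907330 of 3L and 15275426 to 15276470 of 3R, which had the identical score of 2.67, and then 22332928 to 22333988 of 2L with 2.20. The nearest replicate-list region to any of these 4 was 39592 bp away, where the smallest gap beside them in the combined list was 39499 bp. The fifth, at 22508138 to 22509138 of 2L, scored 2.07. Replicate 1 had no region there, and replicate 2 listed 22508052 to 22509374 with 3.31, the highest score of its list.

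The form of the scores gives a further description of these regions. Raised as a power of 2, each score of the combined list was 1.91 times a ratio of 2 whole numbers, with the constant chosen to make the whole numbers small. In lowest terms the ratios of those 5 regions were 9 to 2, 10 to 3, 10 to 3, 12 to 5 and 11 to 5. The replicate 2 region with 3.31 had 15 to 1, with a constant of 0.661 for that list. By contrast, the strongest regions in both lists had 1030 to 651, 557 to 362 and 885 to 577. Lowest terms give only the smallest whole numbers possible, the constant is read from the values, and what was counted is not stated. Among the 9 isolated regions that scored 1.5 or more, the 6 with a first number of 20 or less were not in both replicate lists, and the other 3 were. These 9 were picked out after their values were seen. Over all isolated narrow regions, 6 of the 40 with a first number of 20 or less were in both lists, and so were 157 of the other 444. Among crowded narrow regions of at least 2000 bp, all 446 with a score of 1 or more were in both lists. Of these 446, 6 had a first number of 20 or less. Under 1800 bp, 14 crowded regions scored 1 or more, none was in both lists, and 11 had such a first number.

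The replicate regions lay close together at the sites that both listed, as they also did at crowded narrow regions. Across the 163 regions the midpoints of the replicate 1 and replicate 2 regions lay a median of 50.5 bp apart, with 90% within 195 bp and the largest offset at 608 bp. Median widths were 2108 bp in replicate 1 and 2087 bp in replicate 2, and the combined region was wider than both in 144 of 163 cases, with a median of 2241 bp. In the replicate 1 list 162 of them had gaps of at least 15 kb, and in the replicate 2 list 161 had. The choice by gaps in the combined list nearly fixes these counts, since on these arms 21 regions of replicate 1 and 30 of replicate 2 met no combined region.

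Scores of the 2 replicates were correlated. They ran from 0.37 to 1.60 in replicate 1, with a median of 0.84, and from 0.43 to 1.65 in replicate 2, with a median of 0.84. Across the 163 regions, r (Pearson) was 0.79 and rho (Spearman) was 0.76. For 1466 crowded narrow regions met by 1 region of each list, r was 0.76 and rho 0.74. The SD of the score difference between replicates was 0.188 for the isolated and 0.193 for the crowded regions, so the replicate spread was of like size. Widths had r = 0.66 and rho = 0.70 in the isolated regions. The constants read from the scores were 4.997 for replicate 1 and 0.661 for replicate 2, each fixed only up to a ratio of whole numbers. It is therefore not known whether the 2 lists share a scale; a difference of scale would shift all log2 scores of a list alike and leaves r, rho and the SD of the difference as they are. Regions are not independent replicates, so no p is given.

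**Figure D3:**
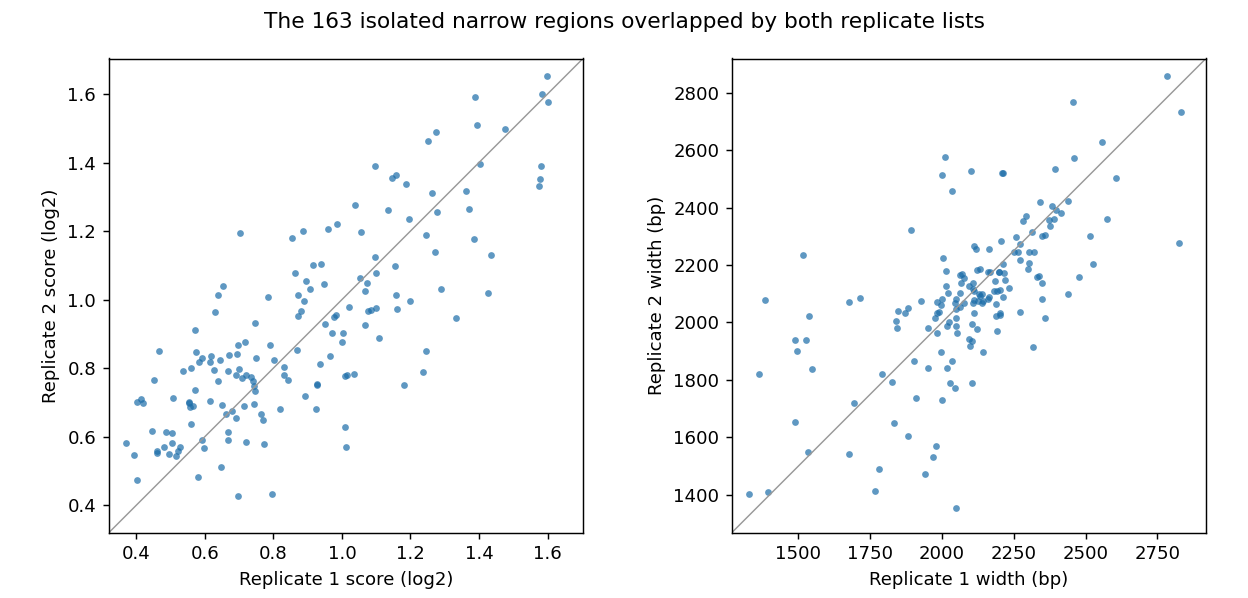
Log2 scores (left) and widths in bp (right) of the 163 isolated narrow regions in both lists, with replicate 1 on the x axis and replicate 2 on the y axis, and a line of equality. Each point is a region, and regions with higher scores in replicate 1 had higher scores in replicate 2 (rho of 0.76).

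The strongest sites in both lists were the following, taken as the 3 highest of each arm. On 2L the highest was 12545468 to 12548210, and its scores were 1.59 (combined), 1.60 (replicate 1) and 1.58 (replicate 2). It stood 23833 bp from the previous region and 30359 bp from the next. The second, 1883398 to 1885762, scored 1.55, 1.58 and 1.60 in the same order and had 130 kb before it with no listed region. The third, 8238466 to 8241192, had 1.35, 1.39 and 1.51.

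On 3L the highest was 16947402 to 16949748, at 1.48 (combined), 1.39 (replicate 1) and 1.59 (replicate 2). The region 5575298 to 5577810 had 1.45, 1.58 and 1.39. The region 6046928 to 6049340 had 1.36, 1.40 and 1.39 and followed a gap of 120 kb. On 3R the highest was 10920090 to 10922712, with 1.55, 1.60 and 1.65, and it came after a gap of 122 kb. The region 25416330 to 25418748 had 1.44, 1.58 and 1.35, and 11923326 to 11926226 had 1.44, 1.48 and 1.498. By score, these 9 sites ranked 106 to 343 of the 5762 regions in the combined list.

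Isolated regions in 1 replicate list only had lower median scores than those in both. The 33 in replicate 1 alone had a median replicate 1 score of 0.59, against 0.84 for the 163. The 27 in replicate 2 alone had a median replicate 2 score of 0.67, against 0.84. The 261 in neither list had a median distance of 39289 bp to the nearest region of replicate 1 and 40105 bp to that of replicate 2. None was within 1000 bp of one, and the smallest distance was 4165 bp. The choice by gaps nearly fixes that these distances are long. On these arms 21 regions of replicate 1 and 30 of replicate 2 met no combined region. Under 15000 bp lay 5 of the 261 for replicate 1 and 4 for replicate 2.

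The most isolated sites were again of both kinds. The largest nearer gap was at 18452558 to 18455136 of 3L, with 210 kb before it and 154 kb after it. It was 2579 bp wide and scored 0.79 in the combined list, 0.89 in replicate 1 and 0.72 in replicate 2. The next were 11658516 to 11659724 of 2L, with a score of 0.38, and 13702714 to 13703814 of 3L, with 0.54. These were 1209 and 1101 bp wide and in neither replicate list.

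The share in both lists was smaller where the nearest neighbour was farther. With the nearer gap at 15 to under 20 kb, 59 of 142 regions (41.5%, 33.8 to 49.8) were in both lists. From 20 to under 30 kb it was 57 of 154 (37.0%), from 30 to under 50 kb 37 of 120 (30.8%), and at 50 kb or more 10 of 68 (14.7%). The median width went down along the same classes, at 1844, 1718, 1398 and 1216 bp, while the median score stayed between 0.50 and 0.52. Among regions of at least 1301 bp the shares were 58.4%, 56.4%, 56.1% and 33.3% (10 of 30, 19.2 to 51.2), so the first 3 classes were close. The last class also held narrower and lower-scoring regions. Median widths of these regions were 2137, 2065, 2050 and 1677 bp along the classes, and median scores 0.57, 0.54, 0.53 and 0.47. The trend was not tested.

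**Figure D4:**
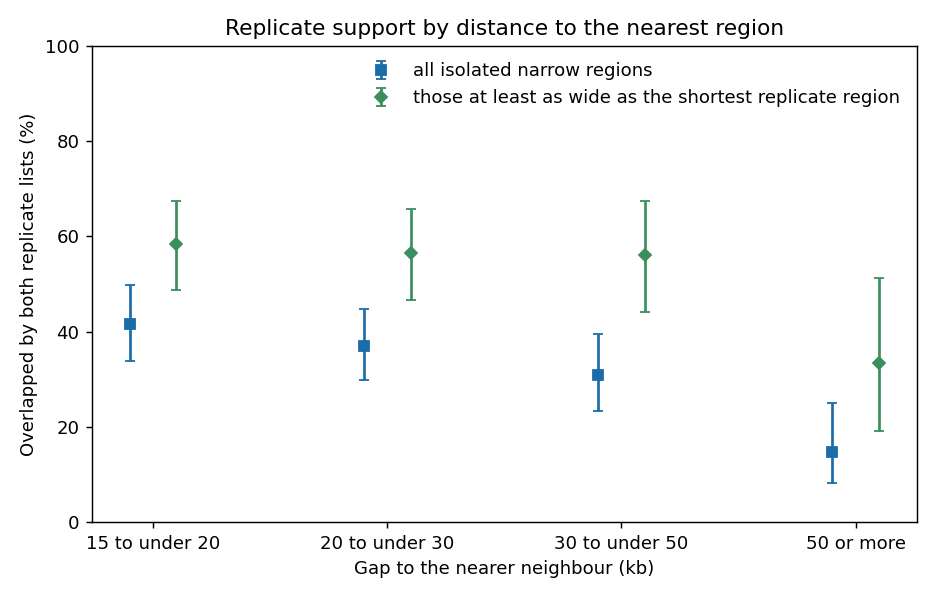
Share of isolated narrow regions overlapped by both replicate lists in percent (y axis) by the gap to the nearer neighbour in kb (x axis), for all regions (squares) and for those of at least 1301 bp (diamonds), with Wilson 95% intervals. The share of all regions goes from 41.5% to 14.7%. That of the wider ones stays between 56.1% and 58.4% up to 50 kb and is 33.3% (10 of 30) at 50 kb or more. The median width of the wider ones is 1677 bp in that last class, against 2050 to 2137 bp in the others.

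The replicate lists also allow the rule to be applied without the combined list. Replicate 1 had 362 isolated narrow regions of its own on the 3 arms (15.5% of 2338), and replicate 2 overlapped 303 of them (83.7%, 79.5 to 87.1). Of the 1719 crowded narrow regions of replicate 1, 1497 (87.1%, 85.4 to 88.6) were overlapped. Replicate 2 had 388 of its own (17.3% of 2241), of which replicate 1 overlapped 324 (83.5%, 79.5 to 86.9), against 1532 of its 1642 crowded narrow regions (93.3%, 92.0 to 94.4). A total of 271 regions were isolated and narrow in both lists, which is 74.9% of those of replicate 1 and 69.8% of those of replicate 2.

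In the replicate lists the scores of isolated and crowded regions were close. The isolated narrow regions had a median of 0.81 and the crowded narrow ones 0.83 in replicate 1, and in replicate 2 the medians were 0.85 and 0.83. Isolated regions that the other replicate overlapped scored a median of 0.92 in replicate 1 and 0.93 in replicate 2, against 0.62 and 0.69 for those it did not. Their median widths were 2159 and 2138 bp, against 1603 and 1602 bp. Among scores above the upper quartile of the arms' regions, replicate 2 overlapped 100 of 100 isolated and 401 of 401 crowded regions of replicate 1, and replicate 1 overlapped 95 of 98 isolated and 382 of 382 crowded regions of replicate 2. Below the lower quartile replicate 2 overlapped 66 of 104 isolated regions of replicate 1 (63.5%), against 285 of 452 crowded ones (63.1%). Replicate 1 overlapped 57 of 86 isolated regions of replicate 2 (66.3%), against 394 of 451 crowded ones (87.4%). From the lower quartile to the median the shares of isolated regions were lower in both lists. Replicate 2 overlapped 65 of 86 isolated regions of replicate 1, against 397 of 449 crowded ones. Replicate 1 overlapped 81 of 108 isolated regions of replicate 2, against 366 of 412 crowded ones. From the median to the upper quartile these counts were 72 of 72 and 414 of 417 for replicate 1 regions. For replicate 2 regions they were 91 of 96 and 390 of 397. The median widths of isolated and crowded narrow regions were 2107 and 2121 bp in replicate 1, and 2093 and 2088 bp in replicate 2. Of the replicate 1 regions isolated by the rule, 194 (53.6%) were also isolated narrow regions of the combined list, and for replicate 2 this was 188 (48.5%).

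The regions on either side of the rule's limits were as follows. Just under the width limit, regions of 2951, 2941 and 2913 bp scored 0.84, 0.89 and 0.74, and just over it isolated regions of 3027, 3031 and 3045 bp scored 1.53, 1.13 and 1.46. All 6 were in both replicate lists. At the gap limit, regions with a nearer gap of 15031, 15033 and 15055 bp scored 0.42, 0.35 and 0.51, and replicate 1 listed only the second. Narrow regions with 14967, 14951 and 14951 bp scored 0.80, 0.42 and 0.88. The first and the third of these were in both lists. The lowest scores were 0.27, 0.28 and 0.28, at 12403758 to 12405258 of 2L, 13602118 to 13603646 of 3R and 9033610 to 9035264 of 3R, and neither replicate listed any of the 3. Of the regions at the minimum width of 1001 bp, the first 3 along 2L, at 1932192 to 1933192, 7322374 to 7323374 and 11202932 to 11203932, scored 0.62, 0.60 and 0.53 and were in neither list.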

How the data were processed

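The authors deposited lists of enriched regions with 1 log2 score each. Bowtie 0.12.7 is named in the submitters' processing notes, and, per the file headers, coordinates are of FlyBase release 5. For the caller, its threshold and the merging of replicates, the step is not given in the sources used here. The log2 scale was read from the values: all 5762 combined-list scores gave whole-number ratios as powers of 2 (relative tolerance 1e-11). Read depth is unknown. The reference table is of Release 6 and gives no sequence, so regions are named by position only, without genes or sequences. Isolated regions and the named ones (the 3 at each extreme of score, width and gap, the 3 strongest in both lists per arm, the 3 strongest in neither, and the longest run) were chosen with earlier results of these data known. Overlap, gaps and interval functions were checked on made lists with known answers. Alternatives were other overlap, gap, width and score limits, weighting, and each replicate left out. Computation used scipy 1.17.1 and numpy 2.4.6 under Python 3.11.15, with pandas 2.3.3; figures used matplotlib 3.10.9.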

Additional observations from a re-analysis of the deposited data

How the results depend on the processing

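Of 37 alternative shares, differences and medians, 17 stayed within the interval or spread of the reported value. The spread used for medians was the SD across regions, a wide limit for a median. Asking for 50% of a region to be covered left the shares of isolated narrow regions unchanged. Part of the 17 was therefore easily met. The number of regions was 342 to 719 under 5 other limits, each within 1.5 times the reported 484. A score limit was set at 0.63, the median of all regions of the 3 arms. It kept 140 of the 484 isolated narrow regions and 1175 crowded ones. Shares of these 140 were 85.7% for replicate 1, 87.1% for replicate 2, 85.7% for both and 12.9% for neither. Their difference to the 1175 in the share in both lists was -11.6 points. With all scores kept and regions under 1301 bp left out, these values were 64.8%, 61.7%, 54.7%, 28.2% and -17.5 points. The regions left out include some that a replicate overlapped. A gap limit of 10000 bp gave 45.5% for replicate 1 and 49.2% for neither. Without each replicate in turn, the share in the remaining list was 39.3% to 40.5% and the share outside it 59.5% to 60.7%. In comparisons added after the data were seen, weighting the crowded regions to the width classes of the isolated ones gave -0.39 points, to score classes -14.8 points, and to both at once 0.077 points, which turned the sign. Among regions of at least 2000 bp the difference was -1.91 points (-7.05 to 1.43). No region under 1800 bp was in both lists, so weighting by width sets those classes to 0 in both groups. For all of these shifts, the cause was not tested. No paired analysis was possible because all values come from ChIP lists and the intervals compare kinds of regions, not groups of samples. With no read totals and 2 ChIP samples, neither depth nor spread between embryo collections could be measured.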
